A study of Mus musculus with 18 samples.

Results

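The 30 genes described here encode enzymes and regulators of cholesterol and fatty acid synthesis. They were chosen by name from knowledge of the pathways, and their rows were read from the gene tables by symbol. All 30 were among the 23284 mouse symbols of the T helper 2 (Th2) cell and lung tables, and 29 had a human counterpart among the 25548 symbols of the eosinophil tables. Of the 30, 17 act in sterol synthesis or sterol transport, 5 regulate the pathway and 8 act in fatty acid synthesis.

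Cells build cholesterol from acetyl-CoA through mevalonate, squalene and lanosterol, and they build fatty acids from the same precursor through malonyl-CoA. Both routes are controlled by the SREBP transcription factors, which stay in the endoplasmic reticulum with SCAP and the INSIG proteins while sterols are plentiful and move to the nucleus when sterols run low. Activated T cells use both routes to make membrane as they divide, and in the lung the alveolar type 2 cell makes fatty acids for surfactant.

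RNA was sequenced in 18 libraries that form 6 groups of 3. Mouse memory Th2 cells with a high level of ST2, the receptor for interleukin 33 (IL-33), were kept in culture for 3 days in IL-2, and IL-33 was added to it in one of the groups. Eosinophils, granulocytes of allergic inflammation, were kept in culture for 3 days without or with amphiregulin, a ligand of the epidermal growth factor receptor. Whole lung came from mice given ovalbumin (OVA), either wild type or dGATA knockout, so that no lung group was free of OVA. All labels give the strain BALB/c and none gives an age, and they do not say what the dGATA allele is. The eosinophil tables carry human gene symbols and coordinates under labels that name mouse, and their values are treated as human. No label states that replicates are independent animals, donors or cultures, so every p-value refers to the spread between these libraries alone, which may be technical.

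Values are FPKM, read fragments scaled for transcript length and library size. The limma test used log2(FPKM + 1), which makes differences of genes near or below 1 FPKM look smaller, and a gene was called higher or lower at a Benjamini-Hochberg adjusted p below 0.05 over all genes tested. The files give no read totals. The spacing of low values gave a relative depth, with the first library of a comparison set to 1. It spanned 0.669 to 1.34 over the Th2 libraries, 0.363 to 1 over the eosinophil libraries and 0.582 to 1 over the lung libraries. Summed FPKM of 6 T cell markers was 793 to 908 in Th2 cells with IL-2 and 1562 to 1571 with IL-33, while 8 macrophage markers summed to at most 0.309. Summed alveolar type 2 markers were 22951 to 31715 in the lung. Eosinophil markers summed to 1086 to 4730 in the eosinophil libraries, where neutrophil markers summed to 2925 to 8471, T cell markers to 88.4 to 370.3 and macrophage markers to 34.3 to 576.

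The order of the 30 genes differed between the cell types. In Th2 cells with IL-2 alone the highest were Insig1, the sterol sensor that holds SCAP back, at 63.3 ± 4.14 FPKM (SD, n = 3), Acly, which makes cytosolic acetyl-CoA from citrate, at 60.1 ± 1.32 FPKM, and Fdps, which makes farnesyl diphosphate, at 53.9 ± 8.002 FPKM. The ranges of these 3 genes overlapped. The lowest in the same cells were Elovl6 at 1.298 ± 0.203 FPKM and Scd1 at 2.49 ± 2.49 FPKM. In wild-type lung the order was led by the stearoyl-CoA desaturases Scd1, at 259.6 ± 39.0 FPKM, and Scd2, at 97.1 ± 4.27 FPKM, and closed by Hsd17b7 at 1.41 ± 0.217 FPKM. In eosinophils without amphiregulin FDPS, FDFT1 and ACLY led, with 42.7 ± 13.4, 41.7 ± 4.85 and 37.7 ± 8.08 FPKM and overlapping ranges, and ELOVL6 was lowest at 0.664 ± 0.270 FPKM.

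**Figure D1:**
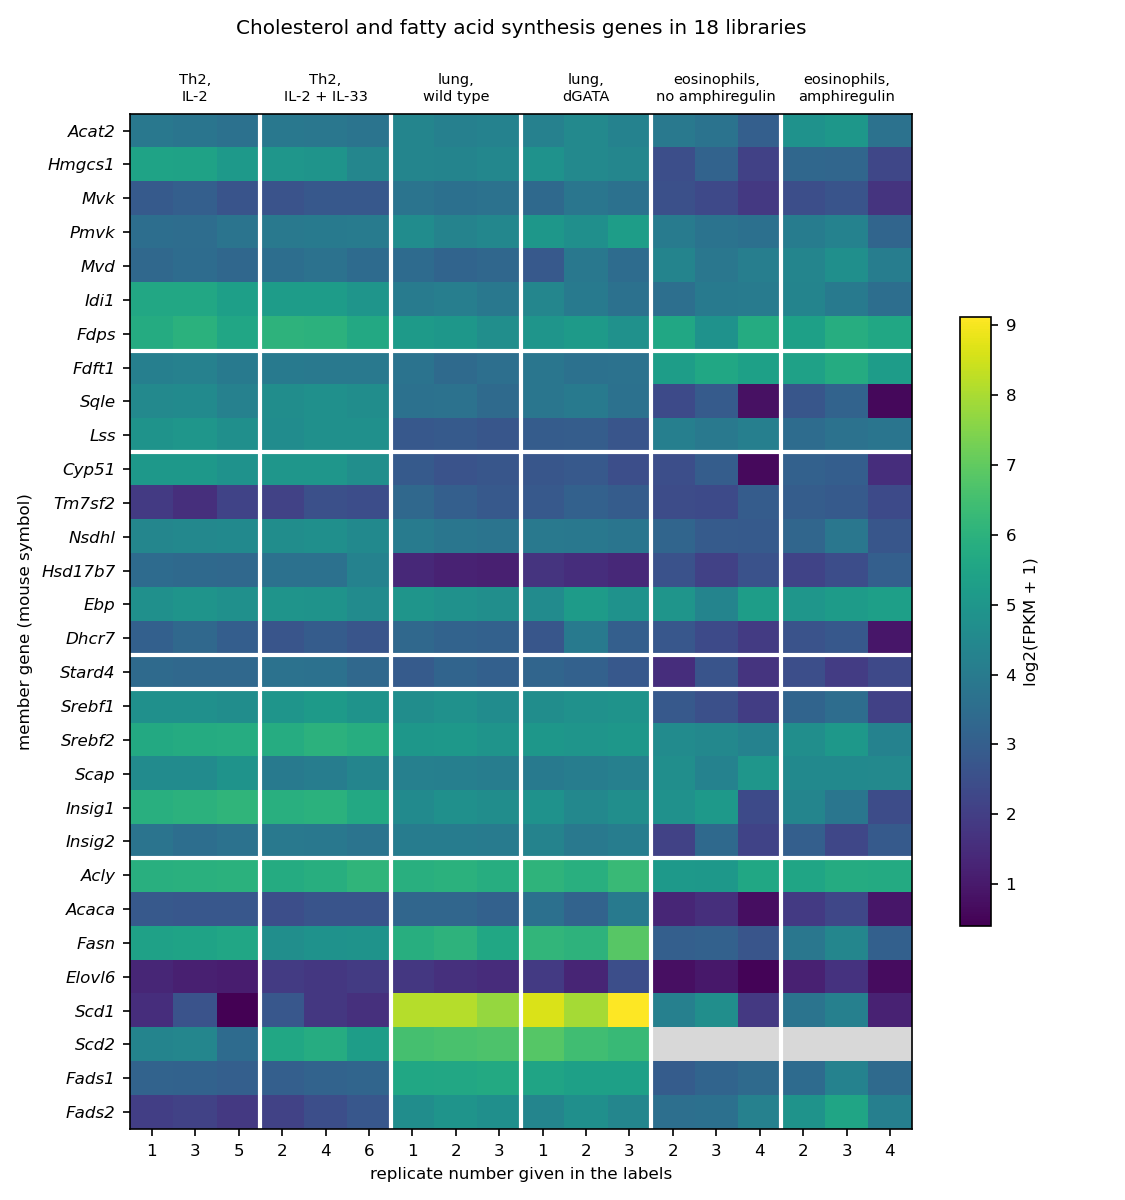
Level of the 30 genes (rows, by mouse symbol and ordered by role) in each of the 18 libraries (columns, by the replicate number in the labels), as log2(FPKM + 1) in colour; grey marks Scd2, which has no human counterpart. Scd1 and Scd2 are brightest in the 6 lung libraries, and Cyp51, Lss and Hsd17b7 are darker there than in the 6 Th2 libraries.

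The first comparison asked which of these genes respond to IL-33 in memory Th2 cells. With IL-33, 3 of the 30 genes rose and 5 fell, while 22 passed no threshold. Those that rose were Scd2 and Elovl6, which desaturate and lengthen fatty acids, and the mevalonate kinase step Pmvk. Those that fell were the fatty acid synthase Fasn, the SREBP escort Scap and 3 sterol enzymes, Hmgcs1, Idi1 and Dhcr7. IL-33 changed 42.1% of all 10296 genes tested, 16.3% higher and 25.7% lower, so 8 of 30 called members is below the background share. The median log2 difference was 0.08 over the 30 genes and -0.11 over all genes tested. Of the 6 T cell markers 5 rose as well, among them Cd3g from 179 ± 6.36 to 459.8 ± 16.8 FPKM (limma, adjusted p = 5.58e-05), and the part of this rise in the values of the 30 genes was not tested.

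Within the fatty acid genes the changes ran in both directions. Scd2, a desaturase that makes monounsaturated fatty acids (chr19:44293676-44306862), was at 19.2, 20.2 and 10.0 FPKM with IL-2 and at 47.8, 55.2 and 36.9 FPKM with IL-33. Every IL-33 library lay above every IL-2 library, and IL-2 library 5 was the lowest of the 6. The mean rose 2.83-fold, with a log2 difference of 1.49 (SE 0.269; limma, Benjamini-Hochberg adjusted p = 0.00541). In bulk RNA of this kind, fewer cells of a type and less RNA per cell cannot be told apart.

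Elovl6, which lengthens palmitate to stearate (chr3:129532386-129638493), was at 1.52, 1.24 and 1.13 FPKM with IL-2 and at 2.74, 2.56 and 2.76 FPKM with IL-33. The groups did not overlap, and both stayed near the bottom of the 30 genes. The mean rose 2.07-fold, with a log2 difference of 0.69 (SE 0.103; limma, adjusted p = 0.00266). Fasn, which assembles palmitate (chr11:120805958-120824547), was at 41.3, 42.8 and 46.2 FPKM with IL-2 and at 25.4, 27.7 and 28.2 FPKM with IL-33. The groups were well apart, with all IL-33 libraries low. Fasn fell 1.60-fold, a log2 difference of -0.66 (SE 0.0815; limma, adjusted p = 0.00118), the smallest adjusted p among the 30 genes.

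The remaining fatty acid genes passed no threshold. Acly stayed at 60.1 ± 1.32 and 60.0 ± 7.86 FPKM without and with IL-33, a log2 difference of -0.01 with a 95% interval of -0.26 to 0.23. Acaca, which makes malonyl-CoA for Fasn, was at 5.95 ± 0.229 and 5.10 ± 0.348 FPKM (limma, adjusted p = 0.117). Of the fatty acid desaturases that introduce further double bonds, Fads1 was at 7.72 ± 0.433 and 7.92 ± 0.653 FPKM and Fads2 at 3.01 ± 0.392 and 4.64 ± 1.22 FPKM (limma, adjusted p = 0.807 and 0.0624). Scd1, the closest relative of Scd2, was low and uneven, at 1.93, 5.21 and 0.320 FPKM with IL-2 and at 5.81, 2.52 and 2.08 FPKM with IL-33 (limma, adjusted p = 0.463). Summed FPKM of 7 adipocyte markers was uneven in the same libraries, at 21.8, 19.5 and 0 with IL-2 and 16.9, 0.0157 and 0 with IL-33. In the latter order of libraries Adipoq, the fat cell hormone adiponectin, was at 1.20, 0 and 0 FPKM. With IL-2, all 7 markers, Adipoq among them, were above 0 in library 3 and at 0 in library 5. The part of these transcripts in the Scd1 values was not tested, and how reads that fit both Scd1 and Scd2 were assigned is unknown here.

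In the mevalonate steps the direction differed from enzyme to enzyme. Pmvk, phosphomevalonate kinase (chr3:89459118-89469009), was at 10.8, 10.6 and 12.4 FPKM with IL-2 and at 14.4, 14.7 and 15.3 FPKM with IL-33, without overlap. Its mean rose 1.31-fold, with a log2 difference of 0.37 (SE 0.0873; limma, adjusted p = 0.0151). The call was lost without IL-2 library 1 or 3 or IL-33 library 4, where the adjusted p was 0.0575, 0.0635 and 0.0554.

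Hmgcs1, the cytosolic HMG-CoA synthase that opens the pathway (chr13:119690462-119708077), was at 42.7, 42.2 and 33.7 FPKM with IL-2 and at 30.9, 29.3 and 20.3 FPKM with IL-33. The groups did not overlap, and the lowest library of each group was number 5 or 6. Hmgcs1 fell 1.47-fold, a log2 difference of -0.56 (SE 0.173; limma, adjusted p = 0.0387). Idi1, which isomerises isopentenyl diphosphate (chr13:8885606-8892396), was at 48.1, 48.2 and 39.1 FPKM with IL-2 and at 36.0, 35.9 and 29.7 FPKM with IL-33. Here too number 5 and number 6 were the lowest of their groups, and the groups stood apart. Idi1 fell 1.33-fold, a log2 difference of -0.40 (SE 0.119; limma, adjusted p = 0.0327).

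The calls of Hmgcs1 and Idi1 depended on the scaling. After scaling by the median of ratios their adjusted p was 0.111 and 0.133, and without IL-2 library 1 it was 0.106 and 0.102, with the log2 difference still negative. Acat2, Mvk, Mvd and Fdps, the other enzymes up to farnesyl diphosphate, passed no threshold. Their log2 differences ran from -0.12 for Mvk to 0.18 for Mvd.

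From squalene onwards, 1 of 9 enzymes was called. Dhcr7, which completes cholesterol from 7-dehydrocholesterol (chr7:143823167-143848410), was at 7.48, 9.18 and 6.99 FPKM with IL-2 and at 5.51, 6.63 and 5.46 FPKM with IL-33. The groups stood apart by a narrow margin. Dhcr7 fell 1.34-fold, a log2 difference of -0.37 (SE 0.124; limma, adjusted p = 0.0491), and it was called in 4 of 15 other settings, with an adjusted p of up to 0.316. Fdft1, which makes squalene, and Sqle and Lss, which turn it into lanosterol, had log2 differences of -0.18, 0.26 and -0.14, and none was called. Of the enzymes after lanosterol, Tm7sf2 was at 2.71 ± 0.716 and 4.22 ± 0.777 FPKM and Hsd17b7 at 9.48 ± 0.406 and 13.8 ± 3.90 FPKM without and with IL-33 (limma, adjusted p = 0.0571 and 0.0657). Cyp51, the lanosterol demethylase, was at 30.7 ± 2.79 and 28.9 ± 3.24 FPKM, with a 95% interval of the log2 difference from -0.35 to 0.18. Nsdhl, Ebp and the sterol carrier Stard4 had log2 differences of 0.17, -0.03 and 0.20.

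Among the regulators only Scap passed the threshold. Scap, which carries SREBP from the endoplasmic reticulum to the Golgi (chr9:110333293-110384946), was at 23.2, 23.4 and 28.3 FPKM with IL-2 and at 14.7, 16.2 and 19.6 FPKM with IL-33. The groups did not overlap, although the highest IL-33 library came close to the lowest IL-2 libraries. Scap fell 1.48-fold, a log2 difference of -0.55 (SE 0.129; limma, adjusted p = 0.0147). The call was lost without IL-33 library 2 or 4, with an adjusted p of 0.0525 and 0.0565. Srebf2, the SREBP that favours sterol genes, was at 53.3 ± 1.87 and 58.0 ± 4.15 FPKM, and Srebf1, which favours fatty acid genes, at 25.7 ± 0.921 and 31.0 ± 2.96 FPKM (limma, adjusted p = 0.274 and 0.058). Insig1 and Insig2, which retain SCAP, had log2 differences of -0.16 and 0.21 and passed no threshold.

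Counted over the 30 genes, the 2 groups did not overlap in 14, of which 8 were higher and 6 lower with IL-33, against 56.7% of all genes tested. Another scaling moved the split of the calls. Rescaled to a common sum, 5 genes were called higher and 2 lower, with Srebf1 and Sqle added among the higher ones. With median-of-ratios scaling, 8 were called higher and 2 lower, with Srebf1, Sqle, Fads2, Hsd17b7 and Tm7sf2 added. Over all genes the same scalings changed the split from 1680 higher and 2651 lower to 2048 and 1636, and to 2108 and 1986. Scd2, Elovl6, Pmvk, Fasn and Scap were called under both, in the same direction. The share of FPKM in small RNA features was 20.1 to 21.3% with IL-2 and 12.1 to 18.1% with IL-33. With these features left out before rescaling to a common sum, 3 genes were called higher and 4 lower. Over all genes that setting called 1828 higher and 2890 lower. The call lost among the 30 genes was Dhcr7 (limma, adjusted p = 0.051). Leaving out both libraries 5 and 6, a choice made after the data were seen, gave 9 genes higher and 7 lower, among them all 8 called with the 6 libraries. The all-gene counts of that choice are not given here, so its calls are not read as a result about the 30 genes.

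**Figure D2:**
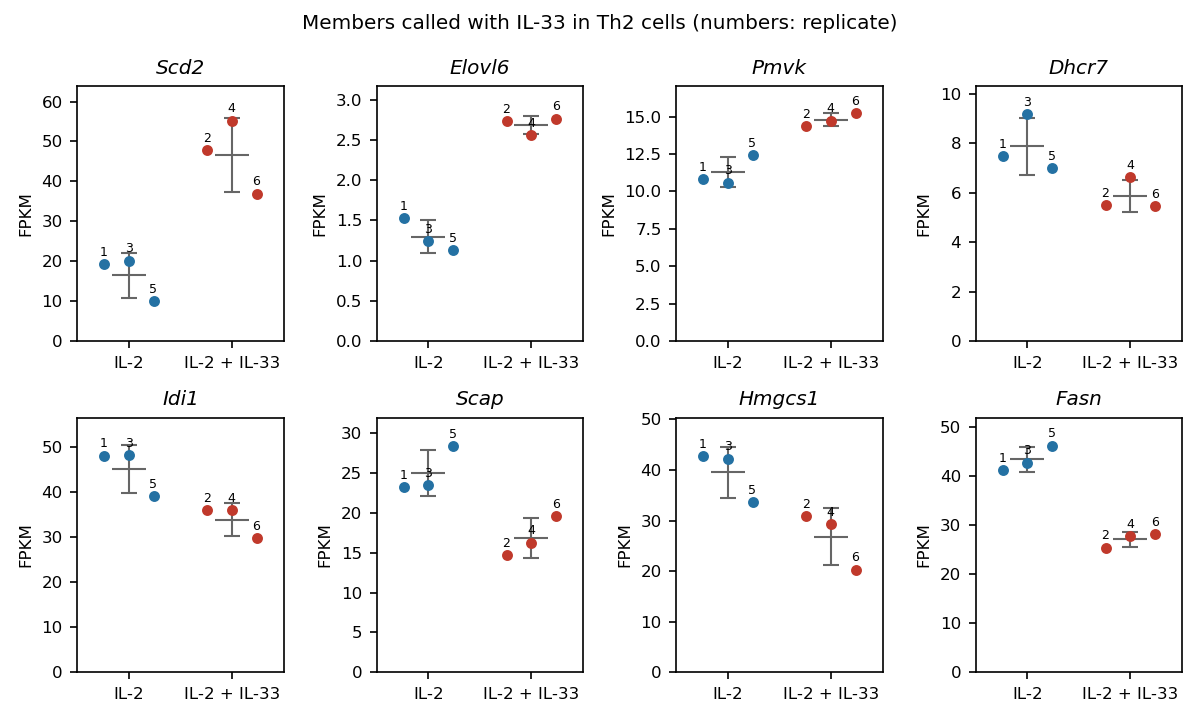
FPKM (vertical axis of each panel, from 0) of the 8 genes called with IL-33 in each Th2 library, with its replicate number, and the mean ± SD of 3 libraries per group. Scd2, Elovl6 and Pmvk lie higher in all 3 IL-33 libraries, and Fasn, Scap, Hmgcs1, Idi1 and Dhcr7 lie lower.

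Of the called genes, 4 that change in opposite directions are shown by the 250 bases before their start, since all are textbook SREBP targets. They are the sterol and fatty acid genes with the smallest adjusted p that have such a stretch in the table of promoters. Sequences are from RefSeq on GRCm38.p6, read 5′ to 3′ on the strand of the gene. Capitals mark matches, on either strand, to the sterol regulatory element TCACNCCAC, the E-box CACGTG, the NF-Y box CCAAT and the GC box GGGCGG. Positions are those of the first base of a match and count back from the start of the gene in that table. For Hmgcs1 this start lies 111 bases before the one in the gene tables.
Fasn (chr11:120824548-120824797, minus strand): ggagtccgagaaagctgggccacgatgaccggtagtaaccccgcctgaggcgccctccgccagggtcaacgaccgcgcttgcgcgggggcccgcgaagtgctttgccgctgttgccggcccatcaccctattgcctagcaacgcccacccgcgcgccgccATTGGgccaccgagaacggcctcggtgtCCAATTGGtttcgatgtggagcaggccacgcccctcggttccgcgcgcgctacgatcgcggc
Elovl6 (chr3:129532136-129532385, plus strand): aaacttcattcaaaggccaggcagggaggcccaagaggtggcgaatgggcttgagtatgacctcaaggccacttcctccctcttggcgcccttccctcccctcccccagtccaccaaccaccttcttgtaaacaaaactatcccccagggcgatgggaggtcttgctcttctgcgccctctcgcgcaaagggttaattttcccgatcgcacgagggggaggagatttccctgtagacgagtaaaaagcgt
Idi1 (chr13:8885356-8885605, plus strand): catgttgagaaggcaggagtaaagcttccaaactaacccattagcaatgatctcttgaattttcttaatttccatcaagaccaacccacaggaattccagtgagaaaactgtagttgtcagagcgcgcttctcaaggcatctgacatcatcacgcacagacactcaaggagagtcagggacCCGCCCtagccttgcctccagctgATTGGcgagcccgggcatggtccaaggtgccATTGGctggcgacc
Hmgcs1 (chr13:119690101-119690350, plus strand): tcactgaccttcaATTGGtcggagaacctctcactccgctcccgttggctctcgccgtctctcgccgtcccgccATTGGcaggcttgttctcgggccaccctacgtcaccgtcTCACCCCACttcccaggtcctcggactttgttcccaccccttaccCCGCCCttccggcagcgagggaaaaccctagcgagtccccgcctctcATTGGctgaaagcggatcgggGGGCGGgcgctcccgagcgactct
Hmgcs1 holds the sterol regulatory element at position -137, with NF-Y boxes at -237, -176 and -45 and GC boxes at -92 and -24. Idi1 holds NF-Y boxes at -45 and -14 and a GC box at -69, and Fasn holds NF-Y boxes at -90, -62 and -59, of which the last pair overlap on opposite strands. Elovl6 holds no match to these 4 motifs in its 250 bases.

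Promoters of 300 bases, from 250 before to 50 after the start, were found for 23 of the 30 genes. For Pmvk the start in that table lies 453 bases after the one in the gene tables, so its window lies inside the gene and is still counted among the 23. The sterol regulatory element was in 1 of the 23, against 1.172% of all 15701 promoters, and the E-box was in 3, those of Hsd17b7, Insig1 and Scap, against 8.28%. The NF-Y box was in 15 of the 23, against 39.023% of all promoters, and the GC box was in 18, against 47.927%. Of the 13 sterol promoters, 10 held an NF-Y box and 12 a GC box, and of the 5 fatty acid promoters 2 held each. A match describes these letters and is not a binding site.

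Genes around the pathway were counted from other lists and are read against the same 42.1% of all genes called. Of 9 tested genes for sterol export, storage and trafficking, 5 rose and 2 fell with IL-33. Npc2, which carries cholesterol out of lysosomes, rose from 129 ± 21.0 to 301 ± 14.2 FPKM (limma, adjusted p = 0.00064), and Soat1, which esterifies cholesterol for storage, rose from 12.02 ± 2.23 to 23.2 ± 3.41 FPKM (adjusted p = 0.00518). The cholesterol exporter Abca1 rose from 0.436 ± 0.185 to 1.44 ± 0.177 FPKM (limma, adjusted p = 0.00455). Lipa, the lysosomal lipase that frees cholesterol from its esters, fell from 10.4 ± 1.52 to 3.97 ± 0.530 FPKM (limma, adjusted p = 0.00069).

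Of 11 other fatty acid synthesis genes tested, 3 rose and 2 fell, a share near that of all genes. Me1, the malic enzyme that supplies NADPH, was at 0.956, 0.904 and 0.220 FPKM with IL-2 and at 6.87, 6.96 and 5.54 FPKM with IL-33. The groups were far apart, and the log2 difference of 2.16 (SE 0.199; limma, adjusted p = 0.000358) was above that of any of the 30 genes. Mid1ip1, which activates acetyl-CoA carboxylase, rose from 6.67 ± 0.465 to 14.4 ± 2.92 FPKM and the acyl-CoA synthetase Acsl3 from 4.89 ± 0.786 to 8.69 ± 0.888 FPKM, while Acsl5 fell from 74.0 ± 6.86 to 50.3 ± 4.90 FPKM (limma, adjusted p = 0.00264, 0.0052 and 0.00665). Of 11 oxidation genes 3 rose and 0 fell, while of all genes 16.3% rose and 25.7% fell. Among the 3 was Cpt1a, the gate of mitochondrial fatty acid uptake, which rose from 12.9 ± 0.472 to 17.0 ± 1.36 FPKM (limma, adjusted p = 0.0133). None of 5 other sterol synthesis genes and, of 10 proliferation genes, Mki67 alone was called, lower, at 27.5 ± 3.16 and 21.2 ± 2.17 FPKM (limma, adjusted p = 0.0397).

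The second comparison set the Th2 cells against whole lung, in 1 fit of the 12 mouse libraries. Sterol genes were mostly higher in the Th2 cells and fatty acid genes mostly higher in the lung. Of the 30 genes, 13 were called higher in Th2 cells, 11 lower and 6 not, where 88.5% of 14148 genes tested were called, 34% higher and 54.5% lower. Of the 17 sterol genes 10 were higher and 4 lower, with a median log2 difference of 0.42, and of the 8 fatty acid genes 0 were higher and 6 lower, with a median of -1.35. The median of all genes was -0.38. Of the regulators, 3 were higher and 1 lower. Cell type and culture cannot be told apart here, since the Th2 cells were cultured and the lung was not.

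Among the 30 genes, Cyp51, Hsd17b7 and Lss, which act at or after the closing of the sterol ring, had the 3 largest log2 differences in favour of Th2 cells. Cyp51 ran from 4.64 to 6.31 FPKM in the 6 lung libraries, with a median of 5.60, and from 25.2 to 32.4 FPKM in the 6 Th2 libraries, with a median of 30.8. The groups were far apart, a 5.35-fold ratio of means and a log2 difference of 2.23 (SE 0.0842; limma, adjusted p = 2.85e-10). Hsd17b7, a ketoreductase that follows Cyp51, ran from 1.22 to 2.28 FPKM in lung, median 1.64, and from 9.07 to 18.3 FPKM in Th2 cells, median 10.7. It was 6.92-fold higher in Th2 cells, without overlap, with a log2 difference of 2.21 (SE 0.113; limma, adjusted p = 4.25e-09). Lss, lanosterol synthase, ran from 5.51 to 6.90 FPKM in lung, median 6.13, and from 23.9 to 30.6 FPKM in Th2 cells, median 26.6. The ratio of means was 4.39-fold and the log2 difference 1.97 (SE 0.0675; limma, adjusted p = 1.23e-10).

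Smaller ratios were seen for other sterol enzymes and for the regulators. Idi1 ran from 11.7 to 20.1 FPKM in lung, median 15.0, and from 29.7 to 48.2 FPKM in Th2 cells, median 37.5, 2.56-fold higher (limma, adjusted p = 7.53e-07). Sqle, the squalene epoxidase, ran from 9.64 to 15.0 FPKM in lung, median 11.7, and from 18.003 to 26.2 FPKM in Th2 cells, median 23.7, a log2 difference of 0.88 (SE 0.0832; limma, adjusted p = 1.11e-06). Nsdhl, a C4 decarboxylase, ran from 12.7 to 15.4 FPKM in lung, median 13.5, and from 20.3 to 25.9 FPKM in Th2 cells, median 22.1, a log2 difference of 0.69 (SE 0.0636; limma, adjusted p = 9.04e-07). None of these groups overlapped. Insig1 ran from 21.4 to 27.5 FPKM in lung, median 24.9, and from 49.7 to 67.5 FPKM in Th2 cells, median 60.6, a log2 difference of 1.25 (SE 0.0774; limma, adjusted p = 2.33e-08). Srebf2 ran from 29.4 to 32.3 FPKM in lung, median 31.4, and from 51.3 to 62.7 FPKM in Th2 cells, median 55.0, a log2 difference of 0.82 (SE 0.0512; limma, adjusted p = 2.41e-08). Hmgcs1, Fdps, Fdft1, Stard4 and Scap were also called higher in Th2 cells, with log2 differences of 0.58, 0.87, 0.39, 0.42 and 0.30. Insig2 was called lower, at -0.32 on the log2 scale, a call that was lost (limma, adjusted p = 0.423) once small RNA features were left out. Srebf1 was at 26.1 ± 1.81 and 28.4 ± 3.46 FPKM (SD, n = 6) and was not called (limma, adjusted p = 0.11).

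Not all sterol enzymes were higher in the Th2 cells. Pmvk ran from 19.0 to 37.2 FPKM in lung, median 24.7, and from 10.6 to 15.3 FPKM in Th2 cells, median 13.4, so that lung was higher by 2.02-fold (log2 difference -0.94, SE 0.0903; limma, adjusted p = 1.27e-06). Acat2, which makes acetoacetyl-CoA, Mvk, mevalonate kinase, and Tm7sf2, a sterol reductase, were also lower in Th2 cells, with log2 differences of -0.49, -0.85 and -0.89. Mvd, Ebp and Dhcr7 were not called.

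The desaturases set the fatty acid genes apart. Scd1 ran from 215 to 557 FPKM in lung, median 282, and from 0.320 to 5.81 FPKM in Th2 cells, median 2.30. The lung mean was 110.3-fold higher, with a log2 difference of -6.49 (SE 0.357; limma, adjusted p = 8.08e-09). Fads1, the delta-5 desaturase, ran from 40.1 to 50.7 FPKM in lung, median 45.6, and from 7.21 to 8.49 FPKM in Th2 cells, median 7.92, a 5.77-fold difference (log2 difference -2.38, SE 0.0552; limma, adjusted p = 4.37e-12). Fads2, the delta-6 desaturase, ran from 19.8 to 29.4 FPKM in lung, median 25.4, and from 2.58 to 5.82 FPKM in Th2 cells, median 3.37, a 6.38-fold difference (log2 difference -2.42, SE 0.114; limma, adjusted p = 1.96e-09). No lung library overlapped any Th2 library for these desaturases. Scd2 was 2.99-fold higher in lung, and Fasn and Acaca were 1.98-fold and 1.78-fold higher, all called lower in Th2 cells. Acly, the shared source of acetyl-CoA, was at 63.3 ± 8.11 FPKM in lung and 60.1 ± 5.04 FPKM in Th2 cells and was not called (limma, adjusted p = 0.411), and neither was Elovl6 (adjusted p = 0.201). In all, 22 of the 30 genes did not overlap between lung and Th2 cells, against 71.1% of all genes tested.

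Other genes of these routes were counted as well. Of 5 other sterol synthesis genes, 4 were higher in Th2 cells, led by Sc5d, the lathosterol desaturase, at 34.8 ± 3.73 against 9.48 ± 1.63 FPKM (SD, n = 6; limma, adjusted p = 3.06e-09). Of 16 other fatty acid synthesis genes 14 were lower in Th2 cells, of 12 oxidation genes 11, and of 10 export and storage genes 9. Acss2, which makes acetyl-CoA from acetate, was at 0.624 ± 0.116 against 14.9 ± 1.89 FPKM (limma, adjusted p = 4.85e-12). All 10 proliferation genes were higher in Th2 cells, with Mcm2 at 34.7 ± 4.96 against 6.86 ± 1.76 FPKM (limma, adjusted p = 4.46e-08). The part of dividing cells, alveolar type 2 cells and fat cells in these differences was not tested. Adipocyte markers summed to 103 to 768 FPKM in the lung.

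**Figure D3:**
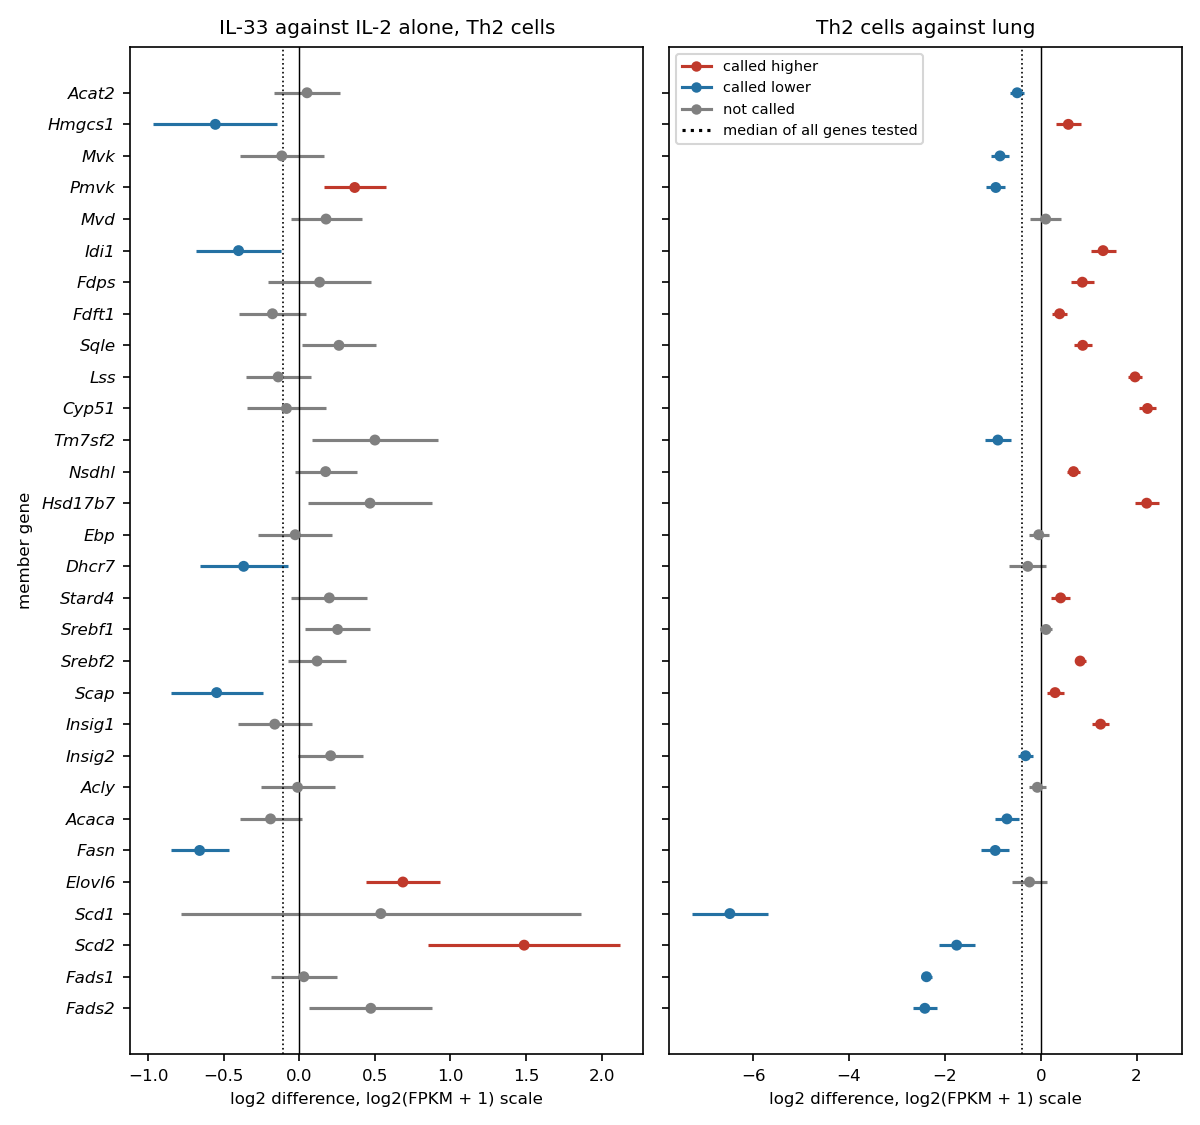
Log2 difference with its 95% interval for each of the 30 genes (rows, by role) with IL-33 against IL-2 alone in Th2 cells (left) and in Th2 cells against lung (right), on the log2(FPKM + 1) scale, coloured by call; the dotted line is the median of all genes tested. On the left Scd2 lies highest at 1.49 and Fasn lowest at -0.66, and on the right Scd1 lies lowest at -6.49 and Cyp51 highest at 2.23.

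The third comparison asked what amphiregulin does in the eosinophil cultures. None of the 28 tested genes was called by limma, whose smallest adjusted p among them was 0.999, and 0.206% of 12616 genes tested were called. At an unadjusted p below 0.05, 3.11% of all genes passed. Libraries with the same sample number varied together, and those of samples 2 and 3 also did so across numbers. A fit that blocks on the sample number therefore stands beside the first. The block fit called 1.12% of all genes and again 0 of the 28, with the smallest limma adjusted p at 0.103 for ACAT2. Over the 28 genes the median log2 difference was 0.22, against 0.02 over all genes tested.

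The largest differences were in ACAT2, FADS2 and FASN, which are named for their size. ACAT2, which makes acetoacetyl-CoA for the sterol route, was at 14.4, 12.3 and 7.26 FPKM in samples 2, 3 and 4 without amphiregulin and at 27.9, 31.1 and 11.9 FPKM with it. It was higher with amphiregulin in each of the 3 pairs, but sample 4 with amphiregulin lay below sample 2 without. FASN was at 7.31, 7.58 and 5.51 FPKM without and at 13.6, 20.1 and 7.48 FPKM with amphiregulin, higher in 3 of 3 pairs with overlapping groups. FADS2 was at 11.1, 11.3 and 17.7 FPKM without and at 28.3, 44.7 and 16.9 FPKM with amphiregulin. Samples 2 and 3 were higher with amphiregulin and sample 4 was not. With the block, the log2 differences were 0.94 (SE 0.198), 0.83 (SE 0.236) and 1.04 (SE 0.351) for ACAT2, FASN and FADS2 (limma, adjusted p = 0.103, 0.214 and 0.312).

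Sample 4 stood apart in both groups. Macrophage markers summed to 34.3 and 38.9 FPKM in its libraries without and with amphiregulin, against 297 to 576 in samples 2 and 3, and dendritic cell markers were lowest there too. Eosinophil markers summed to 4730 and 2777 in sample 4 and to 1086 to 1625 in the others. Several of the 28 genes were low there as well. SCD, the single human desaturase matched to Scd1, was at 17.5, 25.0 and 2.63 FPKM without and at 12.4, 17.3 and 1.33 FPKM with amphiregulin, lower in each pair. INSIG1 was at 27.3, 34.0 and 4.11 FPKM without and at 19.9, 13.3 and 4.32 FPKM with it. SQLE was at 4.10, 6.56 and 0.747 FPKM without and at 5.68, 8.10 and 0.506 FPKM with it. In all 3 genes the 2 libraries of sample 4 were the lowest of the 6. Other genes went the other way, and LSS and HSD17B7 were highest in sample 4 of each group. The 17 sterol genes summed to 235, 210 and 228 FPKM in samples 2, 3 and 4 without amphiregulin. With it they summed to 261, 308 and 213 FPKM. With sample 4 left out, a choice made after its values were seen, the block fit rested on the pairs of samples 2 and 3 alone. It called 3 members, all higher, namely ACAT2 (log2 difference 1.09), FADS2 (1.59) and FASN (1.06), with limma adjusted p = 0.0119, 1.8e-05 and 0.0362. These were the 3 genes named above for their size, and FADS2 had not risen in sample 4. The same fit called 375 of 12229 genes higher, or 3.07%, and 205 lower, so calls were more frequent over all genes too.

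Markers of other cell types also differed between the groups. Dendritic cell markers summed to 59.1, 228 and 13.5 FPKM in samples 2, 3 and 4 without amphiregulin and to 376, 431 and 24.2 FPKM with it, higher in each pair, and with the block 2 of 6, CLEC10A and CD209, were called higher. T cell markers summed to 370.3, 262 and 162 FPKM without and to 201, 157 and 88.4 FPKM with amphiregulin, lower in each pair, and none of 6 was called. Eosinophil markers summed to 1625, 1356 and 4730 FPKM without and to 1086, 1331 and 2777 FPKM with amphiregulin. Neutrophil markers summed to 8471, 4372 and 3271 FPKM without and to 5919, 4232 and 2925 FPKM with it. Both sums were lower in each pair, and the block called 0 of 6 eosinophil and 1 of 6 neutrophil markers, lower. Of 8 macrophage markers the block called MRC1 higher and CD14, CD163 and MERTK lower. The part of these cell types in the values of ACAT2, FASN, FADS2 and the other genes was not tested.

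Only LSS had groups that did not overlap, against 6.7% of all genes. It was at 17.0, 14.3 and 17.1 FPKM without and at 10.2, 11.96 and 12.9 FPKM with amphiregulin, with all 3 amphiregulin libraries below, a log2 difference of -0.43 with a 95% interval of -0.93 to 0.06. Across the pairs, 8 of 28 genes were higher with amphiregulin in 3 of 3, against 17.6% of all genes. They were ACAT2, HMGCS1, CYP51A1, EBP, SREBF1, ACLY, ACACA and FASN. LSS and SCD were lower in 3 of 3, as were 14.9% of all genes. ACLY, the highest of them, was at 37.7 ± 8.08 FPKM without and 50.2 ± 4.85 FPKM with amphiregulin. FDPS, FDFT1 and SREBF2 differed by 0.20, 0.05 and 0.23 on the log2 scale, and over the tested genes other than ACAT2, FADS2 and FASN the differences ran from -0.56 for INSIG1 to 0.52 for CYP51A1 and FADS1. ELOVL6 lay below the filter, at 0.677, 0.927 and 0.387 FPKM without and at 1.31, 2.19 and 0.619 FPKM with amphiregulin (two-sided exact permutation test, p = 0.3, with 0.1 the smallest possible).

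Of the genes around the pathway, LIPA, the lysosomal lipase, was called with the block. It was at 142, 193 and 21.7 FPKM without and at 1167, 1082 and 117 FPKM with amphiregulin, higher in each pair, with sample 4 again lowest (log2 difference 2.63, SE 0.203; limma with the block, adjusted p = 0.003). In the fit without the block its adjusted p was 0.999. The dendritic cell sums above were higher in the same pairs, and their part in the LIPA values was not tested. No other sterol, fatty acid, oxidation or proliferation gene of the lists was called in either fit.

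**Figure D4:**
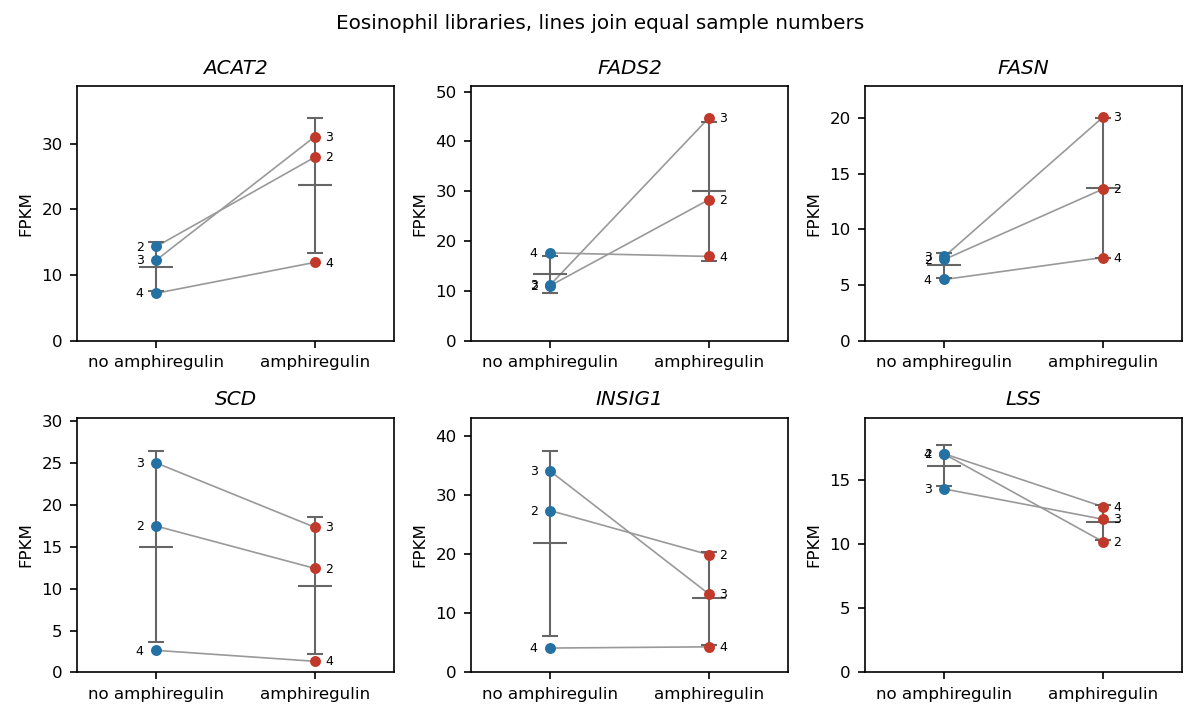
FPKM (vertical axis of each panel, from 0) of 6 genes in the eosinophil libraries without and with amphiregulin, with the sample number beside each point, lines joining equal numbers and bars for the mean ± SD of 3 libraries. ACAT2 and FASN are higher with amphiregulin in all 3 pairs, SCD and LSS are lower in all 3, and sample 4 lies lowest of each group for ACAT2, FASN, SCD and INSIG1.

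The fourth comparison set dGATA lung against wild-type lung, both after OVA. Gata1, a transcription factor that eosinophils need to form, was at 1.65, 1.23 and 0.963 FPKM in wild type. In dGATA lung it was at 0.126, 0.134 and 0.314 FPKM. Fewer cells with Gata1 and less Gata1 per cell cannot be told apart here, so these values do not verify the knockout label. The eosinophil receptor gene Ccr3 fell from 5.36 ± 0.733 to 0.125 ± 0.111 FPKM and the granule gene Prg2 from 9.70 ± 3.27 to 0.428 ± 0.311 FPKM (limma, adjusted p = 0.00326 and 0.0427). None of the 30 genes was called, where 0.0947% of 13727 genes tested were. At an unadjusted p below 0.05 it was 6.84% of all genes, and a fit that blocked on the replicate number called 0 of the 30 and 0.0219% of all genes. The medians of the log2 differences were 0.06 over the 30 genes and -0.03 over all genes tested.

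In 3 of the 30 genes the groups did not overlap, against 14.1% of all genes tested. Pmvk was at 23.7, 19.0 and 20.8 FPKM in wild type and at 31.5, 25.6 and 37.2 FPKM in dGATA lung, a log2 difference of 0.54 with a 95% interval of 0.17 to 0.91 (limma, adjusted p = 0.574). Fasn was at 57.5, 64.0 and 47.6 FPKM in wild type and at 69.4, 64.4 and 116 FPKM in dGATA lung, where library 3 was high and library 2 barely above the highest wild type (limma, adjusted p = 0.751). Fads1 was at 47.0, 48.2 and 50.7 FPKM in wild type and at 44.2, 40.1 and 40.5 FPKM in dGATA lung, a log2 difference of -0.22 with a 95% interval of -0.41 to -0.03 (limma, adjusted p = 0.675). All 3 dGATA libraries were below the wild-type ones, and none of these differences passed the adjusted threshold.

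Scd1, the highest of the 30 genes in lung, was at 283, 282 and 215 FPKM in wild type and at 391, 244 and 557 FPKM in dGATA lung. The groups overlapped, and dGATA library 3 was the highest of the 6. Its log2 difference was 0.54 with a 95% interval of -0.20 to 1.28 (limma, adjusted p = 0.779), and 0.26 without dGATA library 3. The same library was highest for adipocyte markers, which summed to 217.5, 267 and 103 FPKM in wild type and to 271, 357 and 768 FPKM in dGATA lung. Adipoq was at 8.97, 11.1 and 1.70 FPKM in wild type and at 9.12, 12.8 and 30.4 FPKM in dGATA lung. Thrsp, a lipogenic regulator of fat and liver, was at 21.3, 24.5 and 12.2 FPKM in wild type and at 37.5, 24.2 and 112 FPKM in dGATA lung. The part of fat tissue in the Scd1 and Fasn values was not tested. Alveolar type 2 markers summed to 22951 to 25896 FPKM in wild type and 27010 to 31715 FPKM in dGATA lung.

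Apart from Pmvk, the sterol genes had log2 differences between -0.10 for Tm7sf2 and 0.29 for Hsd17b7. Fdps was at 30.4 ± 5.00 and 30.5 ± 4.03 FPKM in wild type and dGATA lung, with a 95% interval of the log2 difference from -0.36 to 0.38, and Cyp51 at 5.69 ± 0.572 and 5.46 ± 0.761 FPKM, with an interval from -0.35 to 0.24. Srebf2 was at 31.1 ± 1.52 and 30.8 ± 1.08 FPKM, with an interval from -0.20 to 0.17. Dhcr7 and Mvd were uneven in dGATA lung, at 5.73, 14.5 and 7.22 FPKM and at 6.17, 14.0 and 10.2 FPKM. Macrophage markers were uneven in the same libraries, summing to 227, 1133 and 703 FPKM, against 800, 705 and 809 in wild type. Their part in the values of the 30 genes was not tested. Scd2, at 97.1 ± 4.27 and 91.7 ± 18.9 FPKM, did not share the high value of dGATA library 3 seen for Scd1. Apart from Pmvk, Fasn and Scd1, the log2 differences of the 30 genes ran from -0.28 for Fads2 to 0.36 for Acaca.

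**Figure D5:**
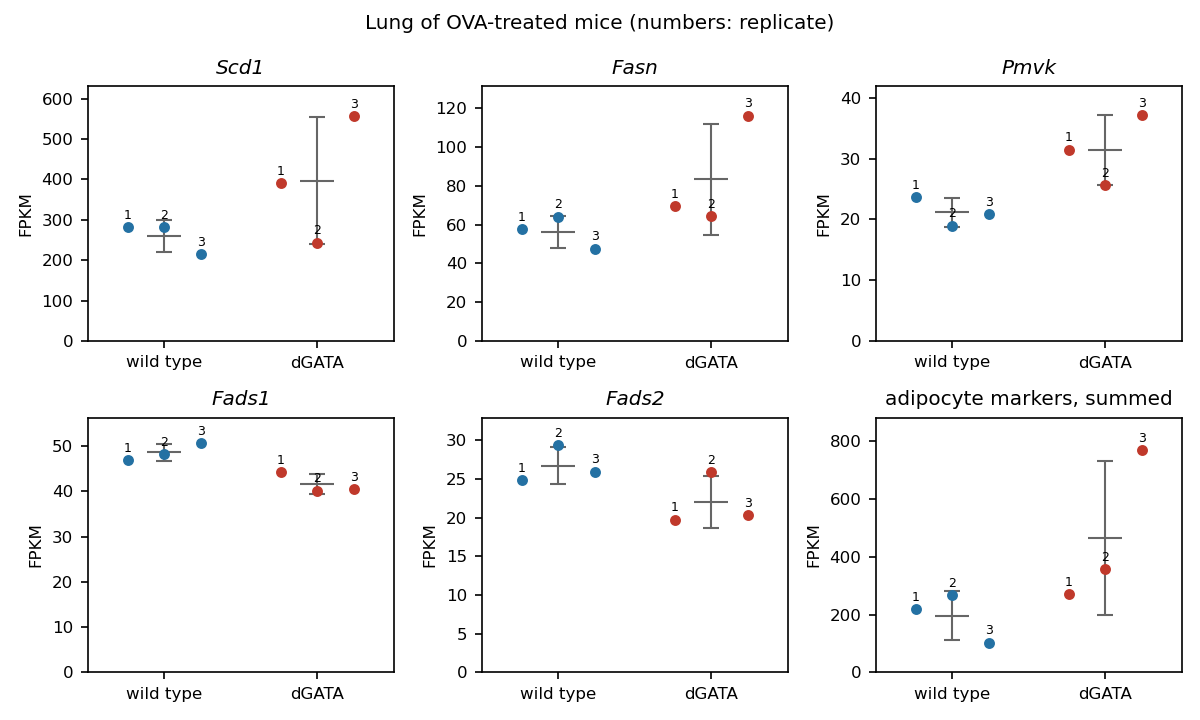
FPKM (vertical axis of each panel, from 0) of Scd1, Fasn, Pmvk, Fads1 and Fads2 and of 7 summed adipocyte markers in wild-type and dGATA lung, with replicate numbers and the mean ± SD of 3 libraries. dGATA library 3 is the highest point for Scd1 (557), Fasn (116), Pmvk (37.2) and the adipocyte markers (768).

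Part of the annotation of these genes is shared with neighbours. On GENCODE vM21, 11 of the 30 genes share exon bases with another gene and 5 with a protein-coding gene. These are Fdps, with 26.7% of its exon bases, Fdft1 with 18.3%, Tm7sf2 with 12.1%, Cyp51 with 3.76% and Srebf1 with 1.93%. Fdft1, Cyp51 and Srebf1 meet a neighbour on the opposite strand. The library kit marks strand, but whether the authors' counting used it is unknown here, so the values of these genes may hold reads of a neighbour.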

How the data were processed

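RNA-seq libraries from Th2 cells, eosinophils and lung were grouped by the titles and label fields alone. RNA was taken with TRIzol and libraries with a stranded mRNA kit, per the labels' protocols. The deposited values are FPKM per gene. The submitters' processing notes name Bowtie 0.12.8, TopHat 1.3.2, Cufflinks 2.0.2 and the build mm10, without their roles. The build behind the human-symbol eosinophil tables is unknown here. The authors' FPKM values carry no depth, and only relative depth was estimated, so no counting interval can be given.

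Entries of 1 symbol were summed. Genes with at least 1 FPKM in at least 3 libraries were kept, and log2(FPKM + 1), with no further scaling, was fitted with limma 3.58.1 in R 4.3.3 with the trend option. From the eosinophil tests, 140 symbols were left out. The scripts were tested on simulated data. The Th2 and lung tables were scaled in the same way, and were compared in a fit of 12 libraries with 4 groups. Alternatives were another pseudocount, other filters, rescaling to a common sum with and without small RNA features, median-of-ratios scaling, the highest entry per symbol, a fit of all 12 mouse libraries, the replicate block, and leaving out each library.

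All 30 members are named whatever their result. Up to 12 called members per comparison, by smallest adjusted p, are shown in more detail. With IL-33 these have their value in every library, and in Th2 cells against lung their range and median. Up to 4 genes with the smallest p may be named per other list. Per-library values of members that were not called in the eosinophils and dGATA lung, and the names Adipoq, Thrsp, Cd3g, Gata1, Ccr3, Prg2, CLEC10A, CD209, MRC1, CD14, CD163 and MERTK, were picked after the values were seen. Members and lists were chosen with earlier results of these data known. Eosinophil libraries of equal number deviated together from their group means, with correlations of 0.399, 0.356 and 0.669 and a threshold of 0.1. They were treated as pairs in the block fit and the counts across pairs, while the main fit left the sample number out. Libraries of samples 2 and 3 also passed this threshold across numbers, at 0.28 and 0.308. Those of sample 4 against the others ran from -0.505 to -0.427. The correlations thus set sample 4 apart more than they separate samples 2 and 3. The lung labels give OVA, but the series' design text names house dust mite.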

Additional observations from a re-analysis of the deposited data

How the results depend on the processing

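No called member changed sign under the alternatives run. With IL-33 in Th2 cells, 3 members were called higher and 5 lower. The count of lower calls was 2 with no filter, and the counts were 5 and 2 after rescaling to a common sum, 8 and 2 with median-of-ratios scaling and 6 and 3 in a fit of all 12 mouse libraries. Leaving out 1 library gave 2 to 6 higher and 1 to 5 lower. Leaving out Th2 libraries 5 and 6, added after the data were seen, gave 9 higher and 7 lower, and its all-gene counts are not given here. Fasn and Scd2 were called in 15 of 15 settings, Elovl6 in 14, Scap in 13, Pmvk in 12, Hmgcs1 in 9, Idi1 in 6 and Dhcr7 in 4. Elovl6 lay below the filter of a mean of 5 FPKM in its remaining setting.

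Over all genes, 1680 were called higher and 2651 lower with IL-33, against 2048 and 1636 after rescaling. Without IL-33 library 2 it was 1107 and 1618, and without IL-33 library 4 it was 1009 and 1482. Calls over all genes thus also moved with the library left out. For the fits with no filter and of all 12 mouse libraries, the all-gene counts with IL-33 are not given here. In the eosinophils all genes gave 4 higher and 22 lower calls, 67 and 74 with the replicate block, and members 0 in both; without sample 4, a choice added after the data were seen, the block called 3 members higher, and 375 higher and 205 lower over all genes. In the lung, where the numbers did not pair the libraries (correlations -0.286, -0.116 and -0.243), 6 and 7 genes were called, 2 and 1 with the block and 19 and 74 in a fit of all 12 libraries, with 0 members in each. In Th2 cells against lung the 24 member calls were kept in 19 of 19 settings, except Insig2, with limma adjusted p = 0.423 once small RNA was left out. Small RNA features held 12.1 to 21.3% of FPKM in Th2 libraries and 3.99 to 5.11% in lung libraries. Without them 16 members were called higher and 10 lower, against 13 and 11. Over all genes it was 5733 and 7498, against 4809 and 7711. In the same comparison, 4353 of all genes were called lower with a mean of at least 5 FPKM. Scaling moved the median of all genes by 0.19 in the eosinophils after rescaling and by 0.13 in Th2 cells against lung without small RNA. No sample numbers recur between the Th2 groups, so no block was fitted there. Deviations from the group means nevertheless correlated above 0.1 for libraries 5 and 6 (0.314), 2 and 3 (0.267) and 1 and 4 (0.176). The other combinations of an IL-2 and an IL-33 library ran from -0.273 to 0.0627. A shared origin of such libraries was not tested. The cause of these shifts was not tested. Depth is known only in relative terms, which limits what can be said of genes near 1 FPKM such as Elovl6 and Scd1 in Th2 cells.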
